A study of Rattus norvegicus with 86 samples.

Results

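The kinases and phosphatases of signalling pathways were examined in PL, the prelimbic area of the rat medial prefrontal cortex. They are 69 of the 17250 genes measured there. A gene was a member when its identifier was paired, in the lists of genes with an expression quantitative trait locus (eQTL), with a name that began with Mapk, Map2k, Map3k, Map4k, Camk, Prk, Cdk, Stk, Pik3, Ppp, Ptp, Dusp or Inpp. These lists gave a name to 3292 of the 17250 genes, so many kinases and phosphatases of the table carry no name here. Every member had been listed for an eQTL, 43 of them in the infralimbic cortex list and 29 in the single-region list (3 in both), with 2 of the latter listed for PL itself. The spread of a member over rats is therefore not independent of how it was chosen. The infralimbic list was used in a shortened form, and all 43 of its members lie on chromosomes 1 to 7. Absence from the lists therefore does not show that a gene lacks an eQTL.

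Each of the 80 rats gave 1 library of polyA RNA from bilateral PL tissue. All were Heterogeneous Stock (HS) rats, an outbred population descended from inbred founder strains. All were naive to behavioral and drug treatment. The labels name no allele or agent for any group, and alleles were not compared between groups. The groups were the sexes (40 male, 40 female) and the rat batches of the labels. There were 14 rats in batch 2 (11 male, 3 female), 23 in batch 3 (10 male, 13 female) and 26 in batch 4 (11 male, 15 female). Batch 5 held 1 female and batch 6 held 16 rats (8 male, 8 female). The labels do not say what a rat batch is, and they give no age for any rat. Another 6 labelled samples were removed by the authors and not analysed.

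Protein kinases transfer phosphate from ATP to proteins and phosphatases take it off, so their balance sets the activity of enzymes, channels and transcription factors. Many act in relays, as in the mitogen-activated protein (MAP) kinase cascade, or as complexes in which regulatory subunits choose where a shared catalytic subunit works. In cortical neurons these enzymes carry calcium, cyclic AMP, energy and growth factor signals, and several of them are known for their part in synaptic plasticity.

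Values are log2(adjusted count + 1), so a difference of 1 is a doubling. Sums of adjusted counts ran from 16957388 to 20613398 per library, and 2.02% to 5.66% of genes were at 0. These sums come after scaling to a common upper quartile, so the depth of each library is not shown by them. Of the 69 members, 65 were detected in all 80 rats. The other 4 had a mean log2 value under 5, as did 24.5% of all genes. They were *Ptpn22* (at 0 in 16 rats), *Ppp1r1c* (7 rats), *Ppp1r17* (4 rats) and *Ptpn7* (2 rats). *Ptpn22* and *Ptpn7* encode tyrosine phosphatases best known from lymphocytes, and *Ppp1r1c* and *Ppp1r17* encode inhibitors of protein phosphatase 1. Their highest adjusted counts in any rat were 14, 12, 13 and 20, in the order *Ptpn22*, *Ppp1r1c*, *Ppp1r17* and *Ptpn7*, so differences in them were hard to detect at this depth.

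The members were otherwise well covered, with a median of their mean log2 values of 9.17 beside 8.0 over all genes. The main pattern among them was a difference between rat batches. By limma's moderated F-test over batches, 45 of 69 members passed at an adjusted p under 0.05 (65.2%), beside 59.4% of all genes. The mean of batches 4 and 6 (42 rats) was then set against the mean of batches 2 and 3 (37 rats). These batch pairs had been seen in earlier results of these data. The contrast and its p-values therefore describe direction and size and are not independent evidence. In batches 4 and 6, 23 members were higher (33.3%) and 14 were lower (20.3%), beside 28.8% and 26.6% of all genes, and 32 passed in neither direction. When each library was scaled to its total instead of its upper quartile, the split was 29 higher and 10 lower, and the share of higher genes among all calls went from 52.0% to 66.4%. The changes were small, with a median absolute difference of 0.10 on the log2 scale among members and 0.16 among all genes. Only 10 members passed 0.25 in size, where 31.5% of all genes did. Of the 37 members called, 13 were called in each of 11 alternative fits, and 24 lost the call in at least 1 of them (20 of these only where fewer rats were used, with 1 sex or 2 batches). The 13 were *Prkaa2*, *Mapk9*, *Map2k2*, *Mapkbp1*, *Mapk8ip1*, *Ppp1r16b*, *Ppp1r8*, *Ppp1r37*, *Ptpa*, *Ppp2r3a*, *Ppp6r3*, *Ppp4r4* and *Ptprd*. Every other called member has this limit, also where it is not repeated below. The rats of the batch pairs overlapped in all 69 members, and the share of all genes without overlap was also 0%.

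Of the batch-to-batch contrasts, that between batches 3 and 4 had the most calls. There 35 members passed the test (51.7% of all genes did), while 5 passed between batches 2 and 3 (5.70% of all genes) and 10 between batches 4 and 6 (6.23% of all genes). These contrasts differ in their numbers of rats, and members were also called between batches 2 and 6 alone. The deposited columns come in a first, a middle and a last run of sorted rat identifiers, which the labels do not explain. All rats of batches 4 and 6 lay in the last run, while those of batch 3 were spread over every run. Whether the differences follow the runs or the rat batches was not tested. The batch of a rat and what was done to its batch cannot be told apart with these labels. In tissue of mixed cells, fewer cells of a type and less RNA per cell cannot be told apart either.

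Some markers of the cell types that PL holds differed between the batch pairs, in both directions. Such calls were common, since 28.8% of all genes were higher and 26.6% lower in batches 4 and 6. Of 40 listed markers 10 could be found by name, and none of these was at 0 in any rat. *Eno2*, a neuronal enolase, was lower in batches 4 and 6 by 0.15 (adjusted p = 3.9e-10), and *Vip*, a marker of an interneuron class, was not called. *Olig2*, a transcription factor of the oligodendrocyte lineage, was lower by 0.31. Of 4 microglial markers *P2ry12* was higher by 0.27, *C1qa* and *C1qc* were lower by 0.19 and 0.17, and *Itgam* was not called. *Dcn*, expressed in the meninges, was higher by 0.26. Neither *Dcn* nor *C1qc* passed the F-test over batches (adjusted p = 0.055 and 0.060 by limma). The astrocyte marker *Aldh1l1* and the blood marker *Hbb* were not called, and no endothelial marker had a name. Summed adjusted counts of the neuronal markers, mostly *Eno2* (mean log2 14.35, beside 10.16 for *Vip*), ran from 19906 to 26060 in batches 2 and 3. In batches 4 and 6 they ran from 19585 to 22784. Those of the microglial markers ran from 1208 to 2388 and from 1267 to 2191. The single markers ran from 185 to 528 and from 177 to 399 (*Olig2*), from 196 to 360 and from 185 to 345 (*Aldh1l1*) and from 136 to 430 and from 121 to 533 (*Dcn*), and the medians of *Hbb* were 774 and 564.5. All of these ranges overlapped between the batch pairs. The part of cell composition in the differences of the members was not tested.

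The largest difference among the members was in AMP-activated protein kinase (AMPK), the energy sensor made of a catalytic alpha, a scaffolding beta and a nucleotide-binding gamma subunit. *Prkaa2* (ENSRNOG00000007706, chromosome 5) encodes the alpha-2 catalytic subunit. Its log2 value ran from 6.32 through a median of 7.52 to 8.23 in batches 2 and 3, and from 7.59 through 8.14 to 8.62 in batches 4 and 6. All 42 rats of batches 4 and 6 lay above the median of the other rats, and 13 lay above the highest of them. The difference was 0.68 (SE 0.077), or 1.60-fold, with an adjusted p of 7.3e-12 by limma. *Prkaa1* (ENSRNOG00000012799, chromosome 2) encodes the other catalytic subunit, alpha-1. It ran from 8.19 through 8.97 to 9.44 and from 8.51 through 9.07 to 9.45, with a difference of 0.12 (SE 0.060, adjusted p = 0.086 by limma). The mean of *Prkaa1* was lowest in batch 3 (8.79), while batches 2, 4 and 6 had means of 9.09, 9.06 and 9.05. The F-test over batches passed (adjusted p = 0.0052). Within batch 3 the rats had 8.19 to 9.11 in the middle run of columns, 8.71 to 9.33 in the first and 8.66 to 9.44 in the last. The lowest rat of batch 2 (8.54) was also in the middle run. *Prkaa1* minus *Prkaa2* was also taken in each rat and compared between the rats of batches 4 and 6 and those of batches 2 and 3. Rats of a batch pair were pooled within each sex and the sexes averaged, whereas limma weighted each batch equally. The difference was -0.51 (SE 0.092), so the alpha subunits differed unequally between the batch pairs. Its permutation p was 1e-05, the lowest value that 100000 permutations allow (adjusted p = 5.3e-05 over 16 pairs). This test was chosen after the values were seen. It shuffled single rats between the batch pairs, so its p does not measure the spread between batches. The same holds for the other comparisons within rats below. The difference was -0.38 for batch 4 minus 3 and -0.69 for batch 6 minus 2. The beta subunits *Prkab1* and *Prkab2* differed by 0.01 (SE 0.043) and 0.00 (SE 0.037) and were not called, although *Prkab1* passed the F-test over batches.

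**Figure D1:**
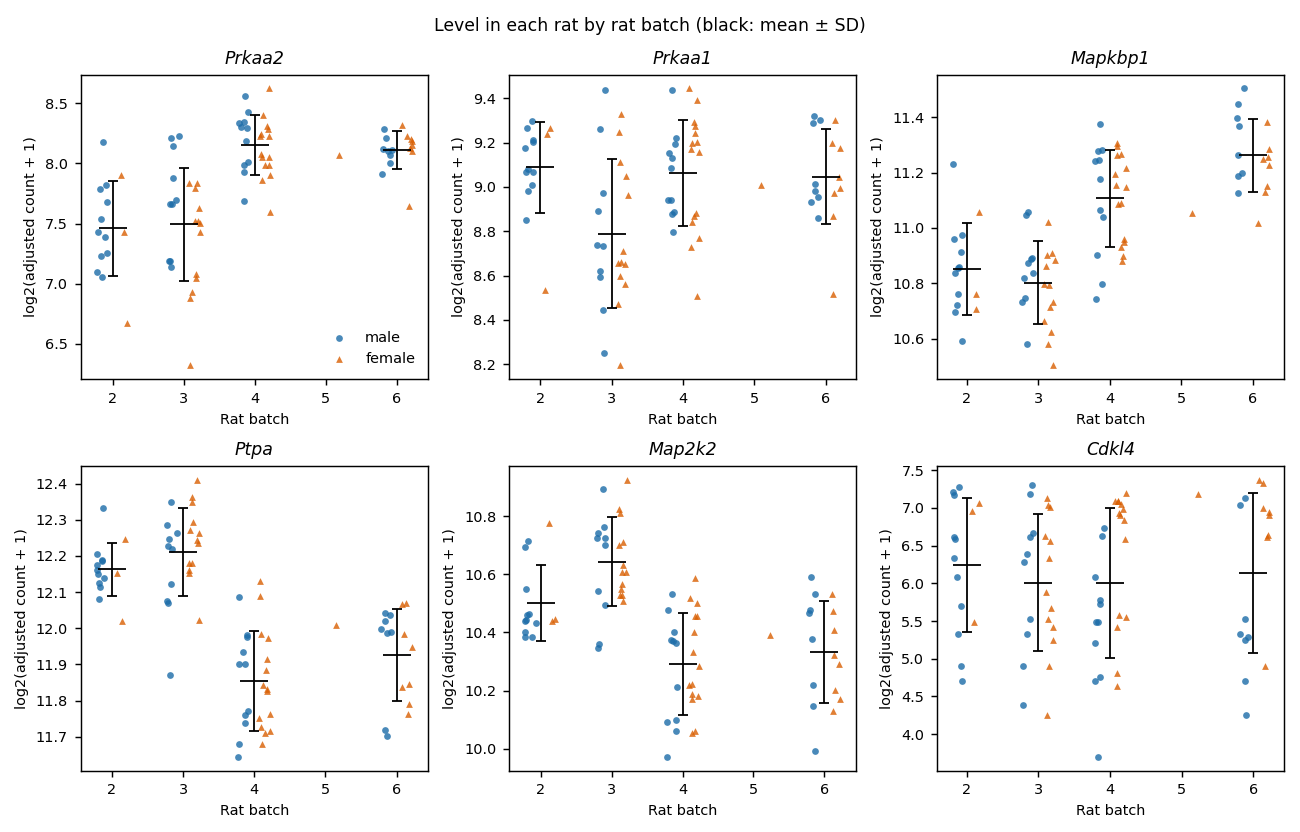
Log2(adjusted count + 1) of 6 members in each of the 80 rats (points, blue circles male and orange triangles female) by rat batch, with the mean and SD of each batch of more than 1 rat in black. *Prkaa2* and *Mapkbp1* sit higher and *Ptpa* and *Map2k2* lower in batches 4 and 6. The mean of *Prkaa1* is lowest in batch 3, and *Cdkl4* spreads from 3.70 to 7.38 with no step between the batch pairs.

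Promoter windows are shown for 3 members that differed between batches in opposite directions or by much. They come from RefSeq (rat build GRCr8, 250 bases before to 50 bases after the start, 5′ to 3′ on the strand of the gene), which held a window for 59 of the 69 members. Capitals mark GGGCGG or CCAAT on either strand. *Prkaa2* lies at chr5:125108275-125108574 (minus strand), *Map2k2*, which was lower in batches 4 and 6, at chr7:9260749-9261048 (minus strand) and *Mapkbp1*, which was higher, at chr3:127401362-127401661 (plus strand).
Prkaa2: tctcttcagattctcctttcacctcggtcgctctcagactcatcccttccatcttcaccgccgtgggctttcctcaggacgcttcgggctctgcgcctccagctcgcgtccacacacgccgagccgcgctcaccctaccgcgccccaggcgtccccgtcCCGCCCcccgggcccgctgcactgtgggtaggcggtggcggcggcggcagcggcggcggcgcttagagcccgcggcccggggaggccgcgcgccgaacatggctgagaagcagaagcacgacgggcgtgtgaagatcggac
Map2k2: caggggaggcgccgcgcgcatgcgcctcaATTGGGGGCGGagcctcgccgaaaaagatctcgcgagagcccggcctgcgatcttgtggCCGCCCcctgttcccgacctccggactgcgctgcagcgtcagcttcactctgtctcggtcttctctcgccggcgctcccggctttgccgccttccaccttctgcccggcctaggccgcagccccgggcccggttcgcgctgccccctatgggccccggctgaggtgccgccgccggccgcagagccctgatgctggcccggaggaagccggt
Mapkbp1: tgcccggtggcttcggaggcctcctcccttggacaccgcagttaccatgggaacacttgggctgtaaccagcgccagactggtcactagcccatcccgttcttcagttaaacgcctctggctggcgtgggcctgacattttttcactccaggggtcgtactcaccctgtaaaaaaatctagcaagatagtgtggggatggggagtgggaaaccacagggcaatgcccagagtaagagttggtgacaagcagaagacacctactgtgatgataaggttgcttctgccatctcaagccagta

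The windows of *Prkaa2* and *Map2k2* were rich in G and C (70.7% and 72.7%), and that of *Mapkbp1* was not (54.0%). Over the 59 members the median GC content was 62.3%, beside 51.7% over all 33469 windows. The sets are unlike, since each member counted once, while a gene could hold several of all the windows. All the windows were also not limited to genes measured in PL. GGGCGG was found, on either strand, in 35 of the 59 windows (59.3%, beside 33.1% of all), CCAAT in 20 (33.9%, beside 37.5%), TATAAA in 2 (3.39%, beside 14.2%) and TGACGTCA in 2 (3.39%, beside 1.83%). None of these motifs contains another. Members higher in batches 4 and 6 (20 windows) and members lower there (10 windows) had median GC contents of 62.0% and 62.2%. *Mapk8ip1*, *Mapk9* and *Ptpa* were among the 10 members without a window.

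The count of each role group that follows stands beside the 28.8% higher and 26.6% lower of all genes. Of the 8 kinases of the MAP kinase cascade, 2 were higher in batches 4 and 6 (25%), 2 were lower (25%) and 4 were not called. *Mapk9* encodes the c-Jun N-terminal kinase JNK2. It ran from 11.89 through 12.04 to 12.31 in batches 2 and 3 and from 12.11 through 12.22 to 12.38 in batches 4 and 6, where all 42 rats lay above the median of the others. Its difference was 0.16 (SE 0.021, adjusted p = 7.9e-10 by limma), a small step beside a small spread. *Map2k7*, which encodes the kinase that activates JNK, was higher by 0.13 (SE 0.032, adjusted p = 0.0003 by limma). *Map2k2* (ENSRNOG00000020005, chromosome 7) encodes MEK2, which activates the extracellular signal-regulated kinases. It ran from 10.35 through 10.55 to 10.93 and from 9.97 through 10.33 to 10.59. In batches 4 and 6, 40 of 42 rats lay below the median of the others, 22 of them below the lowest, and the difference was -0.26 (SE 0.038, adjusted p = 6.7e-09 by limma). *Map4k1*, an upstream kinase known from blood cells, was lower by 0.27 (SE 0.075, adjusted p = 0.0015 by limma). It was not called between batches 2 and 6 alone (-0.21) or in males alone (-0.20). The upstream stress kinases *Map3k5*, *Map3k11* and *Map3k13* and the p38 gamma kinase *Mapk12* were not called, with differences of -0.06 to 0.06. *Map3k5* and *Map3k13* did pass the F-test over batches.

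The 4 scaffolds and dual-specificity phosphatases of the same cascades split as well. *Mapkbp1* (ENSRNOG00000007018, chromosome 3), which encodes a protein that binds JNK, ran from 10.50 through 10.84 to 11.23 in batches 2 and 3 and from 10.74 through 11.20 to 11.51 in batches 4 and 6. There 40 of 42 rats lay above the median of the others and 18 above the highest of them. Its difference was 0.36 (SE 0.037, adjusted p = 6.5e-14 by limma), or 1.29-fold. *Mapk8ip1*, which encodes the JNK scaffold JIP1, moved the other way. It ran from 12.96 through 13.13 to 13.41 and from 12.71 through 12.94 to 13.21, and 25 of the 42 rats lay below the lowest of the others. The difference was -0.19 (SE 0.026, adjusted p = 2.5e-09 by limma). The phosphatase gene *Dusp15* was lower by 0.17 (SE 0.045, adjusted p = 0.00093 by limma), but it was not called in females alone (-0.17) or in males alone (-0.12). *Dusp19* differed by -0.02 (SE 0.061) and was not called. Taken in each rat, *Mapk8ip1* minus its partner *Mapk9* differed by -0.37 in batches 4 and 6 (SE 0.040, adjusted p = 5.3e-05 over 16 pairs by permutation). It was -0.41 for batch 4 minus 3 and -0.28 for batch 6 minus 2.

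**Figure D2:**
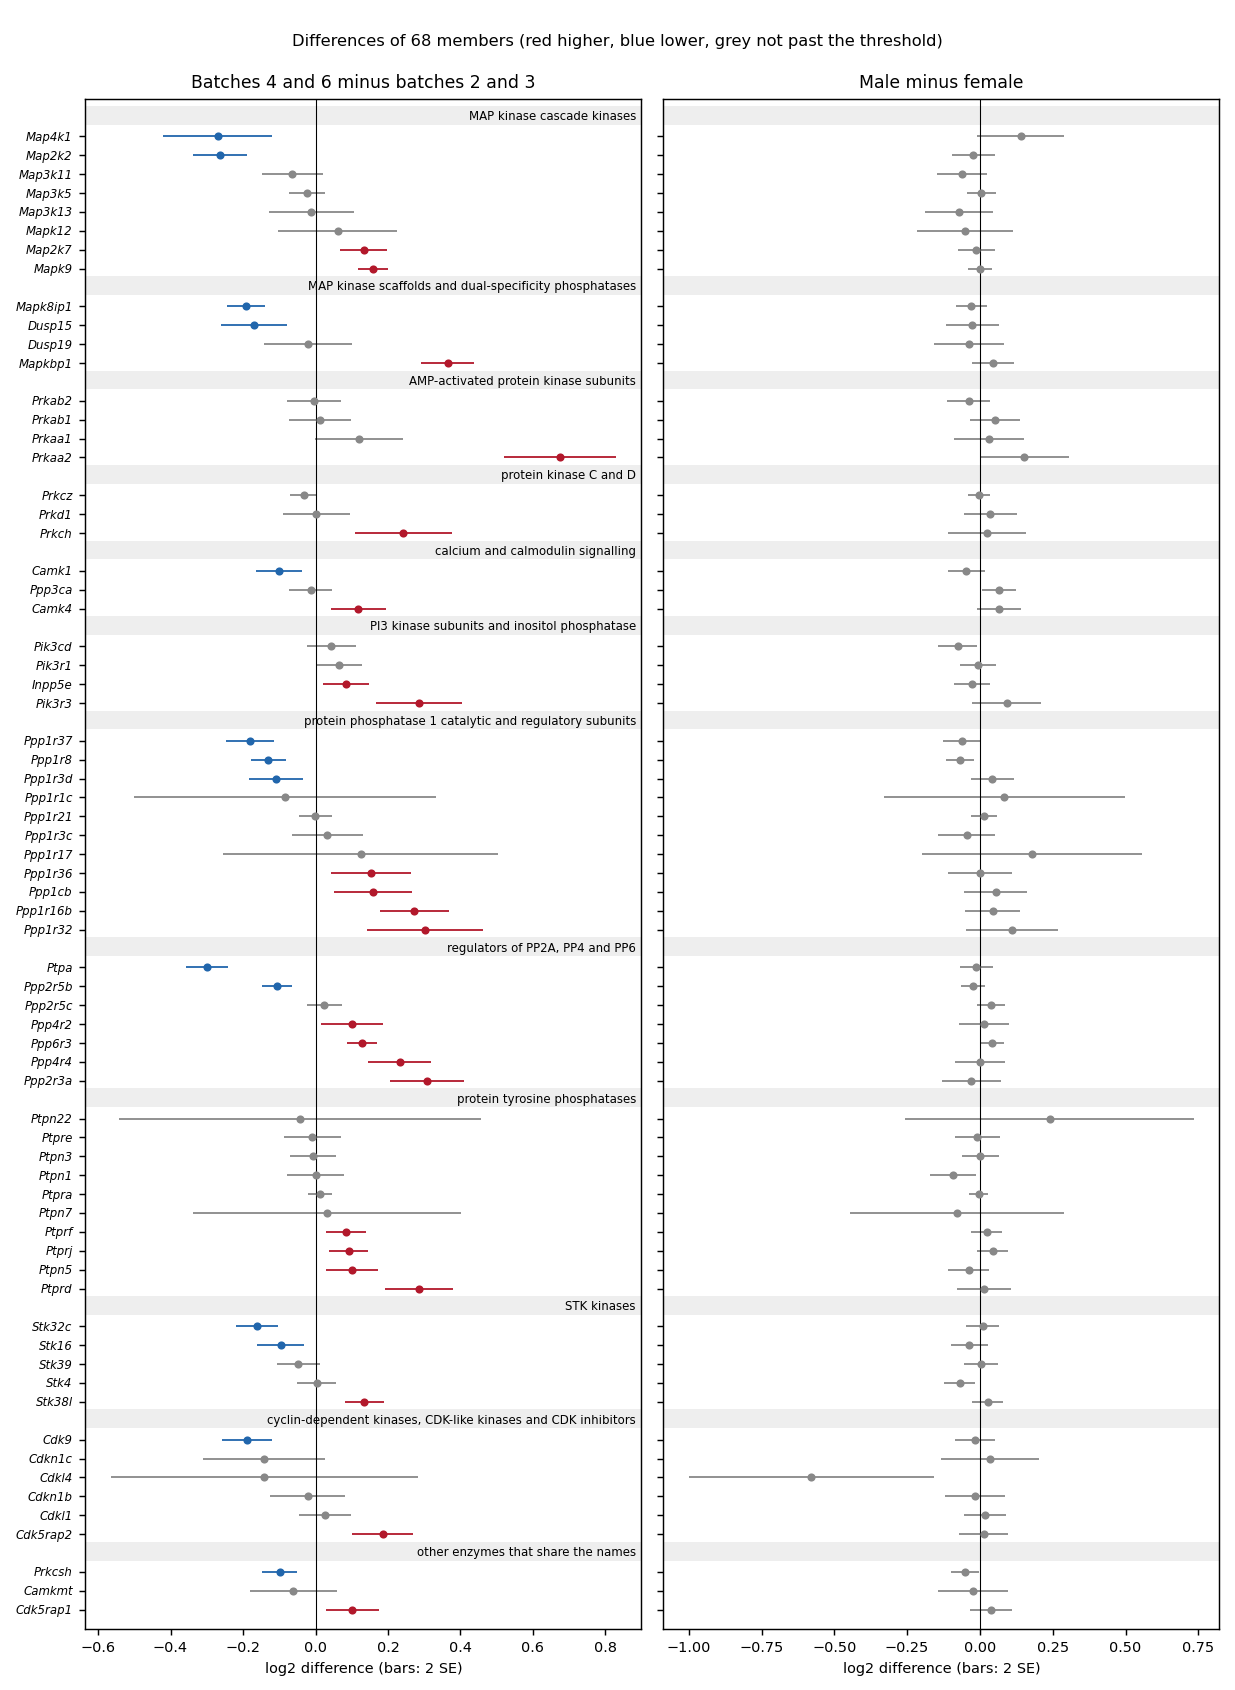
Log2 difference of 68 members between batches 4 and 6 and batches 2 and 3 (left) and between males and females (right), grouped by role, with bars of 2 SE from limma. Red and blue points passed an adjusted p of 0.05 as higher and lower (23 and 14 members on the left, none on the right).

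Among the 4 genes of protein kinases C and D, the lipid- and calcium-regulated kinases, 1 changed. *Prkch*, which encodes the eta isoform, ran from 5.32 through 5.86 to 6.58 and from 5.29 through 6.13 to 6.75 and was higher by 0.24 (SE 0.067, adjusted p = 0.0014 by limma). Its means were 5.74 in batch 2, 6.27 in batch 6 and 6.06 and 6.01 in batches 3 and 4, and between the latter alone the difference was -0.05 (adjusted p = 0.65 by limma). *Prkcz*, which encodes an atypical isoform, and *Prkd1* were not called and lay at -0.03 and 0.00.

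In calcium and calmodulin signalling, the calmodulin-dependent kinase genes moved in opposite directions. *Camk1* ran from 10.46 through 10.78 to 11.10 and from 10.38 through 10.66 to 10.97, a difference of -0.10 (SE 0.032, adjusted p = 0.005 by limma). *Camk4*, which encodes a nuclear kinase that acts on the transcription factor CREB, ran from 8.19 through 8.49 to 8.96 and from 8.39 through 8.63 to 8.94, a difference of 0.12 (SE 0.038, adjusted p = 0.0062 by limma). The ranges overlapped almost whole in both genes. Neither was called in males alone (-0.09 and 0.07) or between batches 2 and 6 alone (-0.05 and 0.10), and *Camk1* was not called in females alone (-0.13) or with library totals (-0.04). Within rats the change of *Camk1* minus that of *Camk4* was -0.24 (SE 0.055, adjusted p = 0.00016 over 16 pairs by permutation). It was -0.30 for batch 4 minus 3 and -0.10 for batch 6 minus 2. *Ppp3ca*, the catalytic subunit of the calcium-activated phosphatase calcineurin, differed by -0.01 (SE 0.029) and was not called.

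The PI3 kinase complex pairs a catalytic subunit, which phosphorylates membrane lipids, with a regulatory one. *Pik3r3*, which encodes the regulatory subunit p55 gamma, ran from 6.83 through 7.5 to 7.94 and from 7.26 through 7.73 to 8.18 and was higher by 0.29 (SE 0.059, adjusted p = 2.6e-05 by limma). *Pik3r1*, which encodes the regulatory subunit p85 alpha, changed by 0.06 (SE 0.032, adjusted p = 0.078 by limma). Its means were 10.32, 10.14, 10.38 and 10.22 in batches 2, 3, 4 and 6, so it passed the F-test over batches (adjusted p = 4.8e-06) without a step between the batch pairs. The catalytic subunit gene *Pik3cd* also passed the F-test but not the contrast (0.04, SE 0.034). *Inpp5e*, a phosphatase of membrane inositol lipids in the primary cilium, was higher by 0.08 (SE 0.032, adjusted p = 0.019 by limma), but it was not called between batches 3 and 4 alone (0.02), in males alone (0.10) or in females alone (0.03).

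Protein phosphatase 1 (PP1) works through a few catalytic subunits and many regulatory ones, and 11 of its genes were members. Of these, 4 were higher in batches 4 and 6 (36.4%), 3 were lower (27.3%) and 4 were not called. *Ppp1r16b*, a membrane-bound regulatory subunit, ran from 8.68 through 9.17 to 9.87 and from 9.22 through 9.45 to 9.81, and all 42 rats of batches 4 and 6 lay above the median of the others. Its difference was 0.27 (SE 0.048, adjusted p = 1.1e-06 by limma). *Ppp1r8*, a nuclear inhibitor of PP1, ran from 9.20 through 9.48 to 9.68 and from 9.12 through 9.35 to 9.54 and was lower by 0.13 (SE 0.024, adjusted p = 3.8e-06 by limma). *Ppp1r37* was lower by 0.18 (SE 0.033, adjusted p = 2e-06 by limma), and 37 of 42 rats lay below the median of the others. *Ppp1cb*, the catalytic beta subunit, was higher by 0.16 (SE 0.054, adjusted p = 0.0099 by limma). Its means were 12.77, 12.52, 12.85 and 12.75 in batches 2, 3, 4 and 6. Only the mean of batch 3 was low, though its rats ran from 12.07 to 13.20. The difference of batch 6 from batch 2 was within the spread. *Ppp1r36* and *Ppp1r32* were also higher (0.15 and 0.30), and the glycogen-targeting subunit gene *Ppp1r3d* was lower (-0.11), while the other glycogen-targeting gene, *Ppp1r3c*, was not called (0.03). Between batches 3 and 4 alone, *Ppp1r36* (-0.01), *Ppp1r32* (0.05) and *Ppp1r3d* (-0.09) were not called. *Ppp1r21* had one of the smallest spreads of the group and was not called (0.00, SE 0.022).

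Of the 7 regulators of protein phosphatases 2A, 4 and 6, 4 were higher in batches 4 and 6 (57.1%), 2 were lower (28.6%) and 1 was not called. *Ptpa* (ENSRNOG00000018457, chromosome 3) encodes the activator of protein phosphatase 2A (PP2A) and had the smallest p of all members. It ran from 11.87 through 12.19 to 12.41 in batches 2 and 3 and from 11.64 through 11.89 to 12.13 in batches 4 and 6. All 42 rats lay below the median of the others, 20 of them below the lowest, and the difference was -0.30 (SE 0.029, adjusted p = 1.2e-14 by limma), or 1.23-fold lower. Rat batch held 64.0% of its variance, beside a median of 18.8% over the members and 17.2% over all genes. The *Ptpa* values of batch 3 were 11.87 to 12.08 in the last run of columns and 12.07 to 12.41 in the others. *Ppp2r3a*, a calcium-binding regulatory subunit of PP2A, moved the other way. It ran from 7.56 through 8.28 to 8.74 and from 8.29 through 8.64 to 8.86, with all 42 rats above the median of the others and a difference of 0.31 (SE 0.051, adjusted p = 3.7e-07 by limma). Of the B56 regulatory subunits, *Ppp2r5b* was lower by 0.11 (SE 0.020, adjusted p = 6.9e-06 by limma) and *Ppp2r5c* was not called (0.02, SE 0.025). *Ppp6r3*, *Ppp4r4* and *Ppp4r2*, regulatory subunits of the related phosphatases 6 and 4, were higher by 0.13, 0.23 and 0.10. The value of *Ppp4r2* passed narrowly (adjusted p = 0.042 by limma), and between batches 2 and 6 alone it was -0.04.

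Of the 10 genes of protein tyrosine phosphatases, 4 were higher in batches 4 and 6 (40.0%), none was lower and 6 were not called. *Ptprd*, a receptor phosphatase of presynaptic membranes that helps to organize synapses, ran from 11.38 through 11.84 to 12.26 and from 11.78 through 12.13 to 12.49. In batches 4 and 6, 40 of 42 rats lay above the median of the others and the difference was 0.29 (SE 0.046, adjusted p = 1.9e-07 by limma). The receptor phosphatase gene *Ptprj* was higher by 0.09 (SE 0.027, adjusted p = 0.0024 by limma) and *Ptprf*, a relative of *Ptprd*, by 0.08. *Ptprj* was not called between batches 2 and 6 alone (0.01) or in males alone (0.06), and *Ptprf* was not called between batches 3 and 4 alone (0.04) or in either sex alone. *Ptpn5*, which encodes the brain phosphatase STEP, was higher by 0.10 (SE 0.036, adjusted p = 0.013 by limma). Its means were 11.91 in batches 2, 3 and 4 and 12.12 in batch 6, so the step lay in batch 6, and it was not called between batches 3 and 4 alone (0.00) or in either sex alone (0.09 in each). *Ptpn1*, *Ptpn3*, *Ptpra*, *Ptpre*, *Ptpn7* and *Ptpn22* lay between -0.04 and 0.03 and were not called. Of these, *Ptpn1* and *Ptpn3* did pass the F-test over batches (adjusted p = 0.023 and 0.034 by limma).

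Of the 5 STK kinase genes, *Stk38l* was higher by 0.13 (SE 0.027, adjusted p = 1.3e-05 by limma). *Stk32c* ran from 11.50 through 11.80 to 12.05 and from 11.33 through 11.62 to 11.82 and was lower by 0.16 (SE 0.029, adjusted p = 1.6e-06 by limma). *Stk16* was lower by 0.10 (SE 0.032), but it was not called in either sex alone (-0.08 in males, -0.14 in females), between batches 2 and 6 alone (-0.03) or with library totals (-0.04). *Stk4*, a kinase of the Hippo pathway, and *Stk39*, which regulates chloride cotransporters, were not called.

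Of the 6 genes named for cyclin-dependent kinases, *Cdk9*, whose product releases paused RNA polymerase II, was lower by 0.19 (SE 0.035, adjusted p = 3.1e-06 by limma) and *Cdk5rap2*, a centrosomal protein gene, was higher by 0.19 (SE 0.043, adjusted p = 0.00013 by limma). The cell cycle inhibitors *Cdkn1b* and *Cdkn1c* and the CDK-like kinases *Cdkl1* and *Cdkl4* were not called. The name rule also took in genes whose products are not kinases or phosphatases, among them the scaffold, inhibitor and centrosomal genes above. Another 3, whose products have other enzymatic roles, were grouped apart. *Prkcsh*, a glucosidase subunit of the endoplasmic reticulum, was lower by 0.10 (SE 0.024, adjusted p = 0.00031 by limma). It was not called between batches 2 and 6 alone (-0.06), in males alone (-0.06) or with library totals (-0.04). *Camkmt*, a calmodulin methyltransferase, was not called. *Cdk5rap1*, a mitochondrial tRNA-modifying enzyme, was higher by 0.10 (SE 0.036, adjusted p = 0.013 by limma). It was the 1 called member that did not pass the F-test over batches (adjusted p = 0.064), its change between batches 3 and 4 was 0.02 (adjusted p = 0.73), and in females alone its difference was 0.00.

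No member passed the test between males and females. In limma's fit with rat batch as a factor, 63 genes of the table passed (0.365%) and 0 of the 69 members did. At an unadjusted p under 0.05 there were 8 members (11.6%), beside 7.82% of all genes. The smallest p was that of *Ppp1r8*, which ran from 9.12 through 9.37 to 9.60 in males and from 9.18 through 9.40 to 9.68 in females, a difference of -0.07 (SE 0.024, adjusted p = 0.34 by limma). *Cdkl4* (ENSRNOG00000040266, chromosome 6) had the largest difference between the sexes. It ran from 3.70 through 5.71 to 7.30 in males and from 4.25 through 6.74 to 7.38 in females, a difference of -0.58 (SE 0.21, adjusted p = 0.35 by limma). Within batches it was -0.33 (batch 2, which held 3 females), 0.09 (batch 3), -0.91 (batch 4) and -1.15 (batch 6). The ranges of the sexes overlapped almost whole. *Stk4*, *Ptpn1* and *Pik3cd* followed, at -0.07 (adjusted p = 0.43 by limma), -0.09 (adjusted p = 0.51) and -0.08 (adjusted p = 0.55). A test of whether the sex difference itself changed between batches called 0 members and 0% of all genes, and 3 members passed an unadjusted p of 0.05, beside 410 of the 17250 genes.

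The rats differed most in *Cdkl4*, given its level. Each member's SD over the 80 rats was ranked among the 500 genes nearest to it in mean, and the median rank of the members was the 37th percentile. *Cdkl4*, with an SD of 0.95, lay at the 98.2nd percentile. *Prkaa2* (93.8), *Ppp1cb* (93.6), *Ptprd* (92.6) and *Mapkbp1* (86.0) followed, and each of these 4 had differed between batches. At the other end lay *Ptpra* (1.0), a receptor tyrosine phosphatase, with an SD of 0.07 and values from 11.71 to 12.06 in all rats, and *Map3k5* (2.0), *Prkcz* (4.2), *Cdkl1* (7.0) and *Ppp1r21* (7.4).

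**Figure D3:**
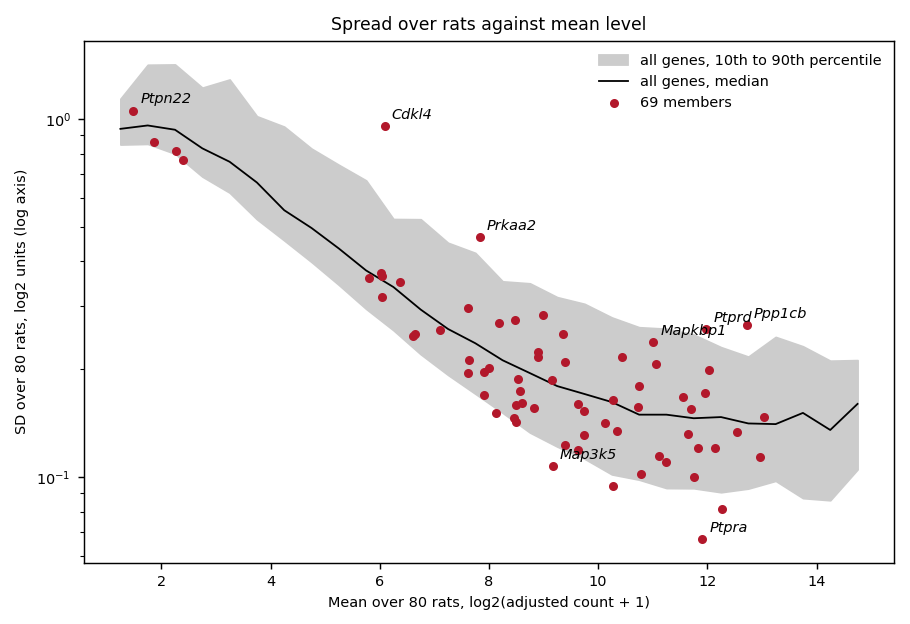
SD over the 80 rats (log axis, log2 units) against mean log2(adjusted count + 1) for the 69 members (red), with the median (line) and the 10th to 90th percentile (grey) of all genes in bins of mean level. *Cdkl4*, *Prkaa2*, *Ppp1cb* and *Ptprd* lie above the grey band and *Ptpra* and *Map3k5* below it, and most members lie inside it.

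Whether a member split the rats into a high and a low group was asked by setting a mixture of 2 normal distributions against a single one by the Bayesian information criterion (BIC). No member met the rule of a BIC fall over 10 with means at least 1 log2 unit and 4 component SDs apart and at least 10% of the rats in the smaller group, while 422 of the 17250 genes did (2.45%). The largest falls were those of *Ppp1cb* (12.4), *Cdkl4* (7.80), *Ppp2r3a* (6.0), *Prkaa2* (5.68) and *Ppp1r17* (5.26). The mixture placed 40.9% of the rats in a low group of *Cdkl4*, 1.60 log2 units below the others. In *Ppp1cb* the groups lay 0.55 log2 units apart, with 17.6% of the rats in the smaller, and after sex and rat batch were taken out together its BIC no longer fell (-4.28).

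Related members were compared across rats in 16 pairs, as subunits of 1 complex, genes of 1 pathway or alternative forms of a subunit or enzyme. Residuals on sex and rat batch were used in the 79 rats of batches 2, 3, 4 and 6, with 100000 permutations and adjustment over the 16 pairs. Pearson's r passed in 11 pairs, 5 positive and 6 negative, and Spearman's rho in 7. The smallest r called was 0.253 in size, and 21.9% of all pairs of genes in the table lay at least as far from 0 (11.1% positive, 10.8% negative). The highest was between the PI3 kinase regulatory subunits *Pik3r1* and *Pik3r3* (r = 0.59, rho = 0.57, permutation p = 1e-05 for each, again the lowest value possible, adjusted p = 8e-05). Without the 2 rats farthest from the median of *Pik3r1* it was 0.58. In every pair the 2 rats left out were chosen by the first gene named alone, not by the second. Within batches 2, 3, 4 and 6 the r of *Pik3r1* and *Pik3r3* was 0.68, 0.58, 0.60 and 0.49, so it held in every batch. Of the other genes, 0.632% had a higher r with *Pik3r1*. The protein phosphatase 4 subunits *Ppp4r2* and *Ppp4r4* were also positively correlated (r = 0.57, rho = 0.57, permutation p = 1e-05 for each, adjusted p = 8e-05), with 0.52 without the 2 farthest rats and 0.50, 0.59, 0.62 and 0.54 within batches. Here 5.35% of genes had a higher r with *Ppp4r2*.

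The strongest negative pair was made of the alternative PP2A subunits *Ppp2r5b* and *Ppp2r5c* (r = -0.44, permutation p = 8e-05, adjusted p = 0.00043, and rho = -0.45, permutation p = 2e-05, adjusted p = 0.00011). It was -0.50 without the 2 farthest rats, and -0.66, -0.48, -0.33 and -0.52 within batches. Of all other genes, 9.49% were at least as negative with *Ppp2r5b*. The scaffold *Mapk8ip1* and the kinase *Mapk9* gave r = -0.39 (permutation p = 0.00037, adjusted p = 0.0015) and rho = -0.38 (permutation p = 0.00084, adjusted p = 0.0027). Within batches their r was -0.75, -0.64, -0.14 and -0.35, and it was -0.45 without the 2 farthest rats, while 13.8% of genes were at least as negative with *Mapk8ip1*. Calcineurin and STEP, which are known to act in 1 pathway, gave r = -0.38 (*Ppp3ca* and *Ptpn5*, permutation p = 0.00049, adjusted p = 0.0016) and rho = -0.32 (permutation p = 0.005, adjusted p = 0.011). It was -0.30 without the 2 farthest rats and -0.53, -0.48, -0.17 and -0.44 within batches, and 9.60% of genes were at least as negative with *Ppp3ca*.

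The AMPK subunits gave both signs. The beta subunits *Prkab1* and *Prkab2* went in opposite directions (r = -0.38, permutation p = 0.0006, adjusted p = 0.0016, and rho = -0.39, permutation p = 0.00051, adjusted p = 0.002), with -0.38 without the 2 farthest rats and -0.13, -0.30, -0.44 and -0.44 within batches. *Prkaa1* with *Prkab1* was also negative (r = -0.31, permutation p = 0.0055, adjusted p = 0.013, and rho = -0.36, permutation p = 0.0012, adjusted p = 0.0031), -0.31 without the 2 farthest rats and of the same sign in all 4 batches. The shares of genes at least as negative were 5.11% with *Prkab1* in the first pair and 17.4% with *Prkaa1* in the second. *Prkaa2* with *Prkab2* (r = 0.30, adjusted p = 0.013) and *Prkaa1* with *Prkaa2* (r = 0.25, adjusted p = 0.036) passed by r and not by rho (rho = 0.24 and 0.22 with permutation p = 0.032 and 0.054, adjusted p = 0.051 and 0.071). Their permutation p for r was 0.0067 and 0.023, and without the 2 farthest rats r was 0.26 and 0.18. Both were negative in batch 6 (-0.03 and -0.30), so they did not hold in every batch. A higher r was found with 17.8% of genes for *Prkaa2* and with 20.6% for *Prkaa1*.

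Of the remaining pairs, *Camk1* with *Camk4* (r = -0.29, permutation p = 0.0095, adjusted p = 0.017) and *Map3k11* with *Map2k7* (r = 0.25, permutation p = 0.025, adjusted p = 0.036) passed by r and not by rho (adjusted p = 0.051 and 0.071). Within batches the first was -0.55, -0.40, -0.15 and 0.18, so its sign turned in batch 6, and the second was 0.66, 0.02, 0.33 and 0.21. An r at least as far in the same direction was found with 18.8% of genes for *Camk1* and with 17.7% for *Map3k11*. The other 5 pairs passed by neither, with r from -0.22 to 0.02. In all, 9 pairs had the same sign in each of the 4 batches.

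**Figure D4:**
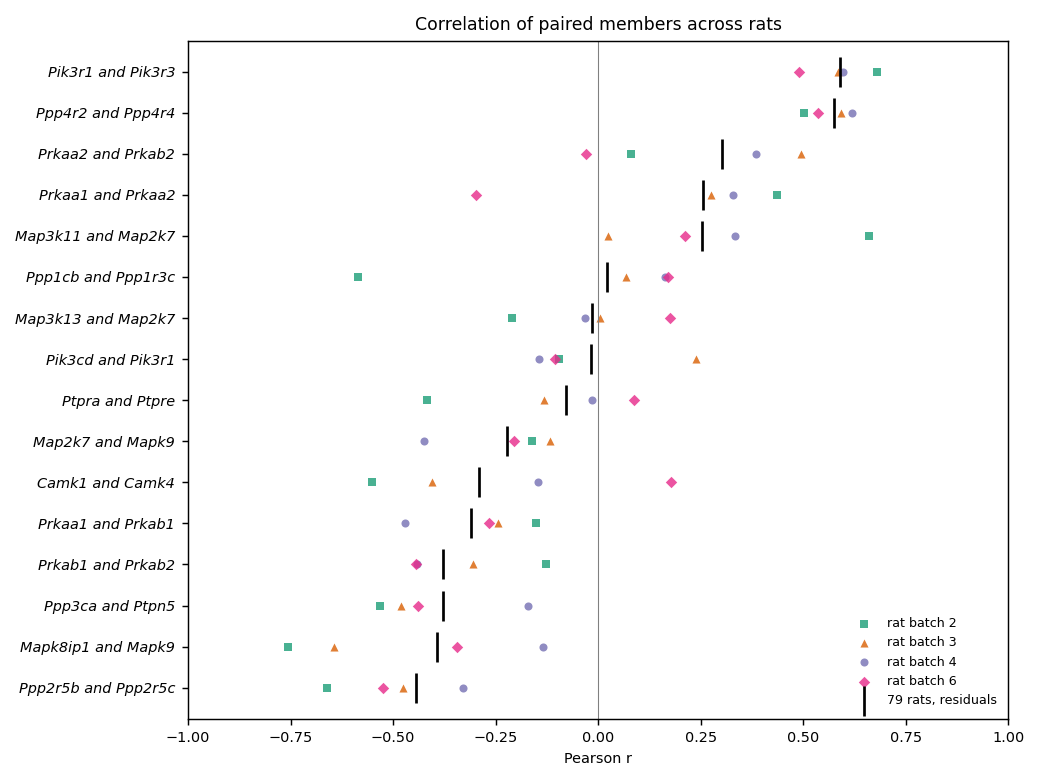
Pearson r across rats of 16 pairs of members after sex and rat batch were taken out (black bars, 79 rats) and within each rat batch (coloured points). *Pik3r1* with *Pik3r3* and *Ppp4r2* with *Ppp4r4* lie above 0.48 in every batch, and *Ppp2r5b* with *Ppp2r5c* lies below -0.32 in every batch.

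Members of the pairs also varied along a component shared with other genes. The first principal component of the residuals of all 17250 genes in the 79 rats held 6.0% of the variance. Rat batch was taken out of these residuals and of those of the pairs, but the runs of columns were not. The sign of the component is arbitrary and was set so that *Prkaa2* correlated positively with it. Of the 23 members that were higher in batches 4 and 6, 18 correlated positively with it (median r 0.47), and of the 14 lower ones 13 correlated negatively (median r -0.61). Over all genes, 90.2% of the higher and 9.90% of the lower ones correlated positively. *Ptpa* (-0.83), *Mapk8ip1* (-0.81), *Map2k2* (-0.77), *Stk32c* (-0.75) and *Stk16* (-0.74) lay at the negative end. At the positive end lay *Ptprd* (0.92), *Ppp2r3a* (0.68), *Prkaa1* (0.68), which was not called between the batch pairs, *Ppp4r2* (0.63) and *Ppp1cb* (0.63). The part of this component in the correlations of pairs was not tested.

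Other genes of the same pathways were counted from lists chosen with earlier results of these data known. Only genes with a name in the eQTL lists could be found. Of 28 listed partners in MAP kinase signalling, 14 could be found by name. Of these 14, 8 were higher in batches 4 and 6 (57.1%, beside 28.8% of all genes). Another 4 were lower (28.6%, beside 26.6%) and 2 were not called. The median difference over the 14 was 0.11. *Ksr2*, a scaffold of the cascade, was higher by 0.89 (SE 0.10, adjusted p = 7.5e-12 by limma) and *Nras*, a small GTPase at its top, by 0.25. Of 26 partners found by name (28 listed) in calcium and cyclic AMP signalling, 14 were higher (53.8%) and 4 lower (15.4%). The smallest p was that of *Pde4d*, a cyclic AMP phosphodiesterase (0.55, SE 0.060, adjusted p = 1.9e-12 by limma). *Gnas*, a G protein subunit, followed (-0.29, SE 0.033, adjusted p = 3.9e-12 by limma). Of 11 growth factor and phosphoinositide genes found by name (15 listed), 3 were higher (27.3%) and 2 lower (18.2%). *Mtmr12* lay at 0.29 and the receptor gene *Igf1r* at 0.52. Of 7 cyclins and their regulators 2 were higher (28.6%) and 2 lower (28.6%), with *Ccnd2* at 0.41 and *Ccnd3* at -0.32. Of 26 other kinase and phosphatase genes 11 were higher (42.3%) and 5 lower (19.2%), with the casein kinase 2 subunit *Csnk2a1* at 0.24 and the PP2A methylesterase *Ppme1* at -0.22. None of the genes found by name on these 5 lists passed for sex.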

How the data were processed

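RNA-Seq of PL from 80 HS rats was analysed. Per the labels and methods, the authors trimmed reads with cutadapt, estimated counts with RSEM on the Ensembl rat transcriptome (Rnor_6.0), applied an upper quartile adjustment with DESeq2, removed 6 samples and deposited the counts as log2 values after adding a pseudocount of 1. Versions are not given in the sources used here. No count test was run, since the counts are adjusted.

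limma 3.58.1 in R 4.3.3 (variance trend) was fitted to all 17250 genes with sex and rat batch, with Benjamini-Hochberg adjustment over all genes and a threshold of 0.05. Where nothing says otherwise, "passed" and "called" mean this. Scripts were tested on simulated data. Python 3.11.15, numpy 2.4.6 and scipy 1.17.1 were used for the rest.

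Members, lists, pairs and the batch contrast were chosen with earlier results of these data known. Named members are, per role group, up to 3 with the smallest p over batches, 5 with the smallest p for sex, 5 at each end of the SD ranking, 5 with the largest BIC fall, those of the fixed pairs and those at 0 in any rat. Members outside this rule were named after their values were seen to complete a group. For each list of other genes, up to 2 with the smallest p for the batch contrast are named. Names were used only for identifiers that the eQTL lists pair with one. Alternatives covered scaling, pseudocount, filter, transformation, covariates and subsets of batches. Genotypes were not analysed here. The values of 1 member, which counts among the 69, are not reported here.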

Additional observations from a re-analysis of the deposited data

How the results depend on the processing

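The count of 0 members for sex and for the sex by batch interaction stayed at 0 under every alternative run. With each of batches 2, 3, 4 and 6 left out in turn, the sex comparison called 26 to 57 genes of the table, and 38 without rat batch in the model, beside 63. The members called over batches numbered 44 to 49 under the alternatives, beside 45. For batches 4 and 6 against batches 2 and 3, another pseudocount (8), median-of-ratios scaling, a filter at a mean of 5, an inverse normal transformation, other variance settings and the share of genes at 0 as a covariate left 23 higher and 14 lower members. Subsets of rats gave 15 higher and 9 lower in males alone, 13 higher and 10 lower in females alone, 18 higher and 7 lower between batches 2 and 6 alone, and 20 higher and 15 lower between batches 3 and 4 alone. In females alone batch 2 held 3 rats, and limma weighted each batch equally. Scaling to the library total, chosen after seeing the data, gave 29 higher and 10 lower. *Prkaa2* stayed between 0.55 and 0.79, *Mapkbp1* between 0.31 and 0.43 and *Ptpa* between -0.36 and -0.23, all called (the transformed scale aside). Over all 69 members and 11 alternatives, a direction turned with a call in either fit for 7 members. These were *Ppp4r2* (-0.041) between batches 2 and 6 alone, *Map3k13* (0.20), *Prkab1* (-0.14), *Prkch* (-0.049), *Ppp1r36* (-0.015) and *Ptpn3* (0.089) between batches 3 and 4 alone, and *Ppp1r21* (0.056) with library totals. A further 27 of the 32 members not called turned only while called in neither fit. Of the 37 called, 24 lost the call at least once, with values down to 0.0024 (*Cdk5rap1*), 0.003 (*Ptpn5*), 0.007 (*Ptprj*), 0.011 (*Ppp1cb*) and 0.019 (*Inpp5e*), while 13 kept it throughout. Library totals ended the calls of *Camk1*, *Stk16*, *Prkcsh* and *Ppp1r3d*. The causes were not tested. The pairs called by r numbered 9 to 11. The looser mixture thresholds called 1 member, *Ppp1cb*. No paired analysis was possible because each rat gave 1 library and the sexes and batches share no rat. Names cover 3292 genes, depth per library is unknown, and members with a mean under 5 rest on few reads.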
